A study of Mus musculus with 43 samples.

Results

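The proteasome subunit genes are described here across 4 tissues of the mouse. They were taken by name, as the entries of the expression table that stand for 1 gene whose symbol is Psma, Psmb, Psmc, Psmd, Psme, Psmf or Psmg followed by a number, with pseudogene names left out. The rule used no measured value and gave 45 of 42349 entries. The members comprise 7 genes of the alpha ring of the 20S core, 6 constitutive and 3 inducible genes of its beta rings, 2 genes of tissue-specific core subunits, 6 ATPases and 10 non-ATPases of the 19S cap, 3 PA28 activators, the PA200 activator Psme4, the inhibitor Psmf1 (PI31) and 6 assembly chaperones. A further 4 entries join a proteasome gene to a neighbour and are no members, among them the catalytic subunit gene Psmb5, which is joined to Mir686.

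RNA was sequenced from liver, skeletal muscle, brain and white adipose tissue (WAT) of female mice aged 15 months, in 43 libraries that make 16 groups. Wild-type mice (Irs1+/+) and mice labelled as global Irs1 knockouts (Irs1-/-) had food ad libitum (AL) or were under dietary restriction (DR) to 30% below AL intake for 12 months, which gives the groups WT_AL, KO_AL, WT_DR and KO_DR in each tissue. The labels list 2 libraries in each WT_AL group and in WT_DR WAT, and 3 in each other group. The sources used here do not say which libraries of different tissues came from the same animal, and the deletion was global rather than confined to a tissue.

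Each group has 1 value per gene, the FPKM that the authors' software estimated over its libraries, with a 95% confidence interval. FPKM divides the fragments of a gene by the length of its transcripts and by a measure of library size, so levels of different genes are on 1 scale per length. Per the study's methods, libraries were scaled with the geometric mean across samples. The summed FPKM of all entries ran from 502670 in WT_AL brain to 1.94e+06 in KO_AL liver, so it was not equal between groups. Over the 16 groups 12989 to 15181 entries had an FPKM of at least 1, and the median SD of a member, taken from the interval, was 25.2% to 58.3% of its FPKM, highest in WT_DR WAT. Depth per library is unknown from these values. Marker genes of each tissue were highest in the tissue of the label, but the 5 liver markers summed to 1907 FPKM in WT_DR muscle, the highest of the muscle groups, where the lowest was 11.8. Irs1 itself did not follow the genotype labels. Its FPKM was 4.70 in WT_AL, 5.95 in KO_AL, 3.29 in WT_DR and 4.75 in KO_DR liver, and it was lower in the group labelled KO than in its WT partner in 1 of 8 pairs, WAT under DR, where it was 2.58 against 6.56. Directions below are therefore those of the labelled groups. Whether the entry covers the part of Irs1 that was deleted was not tested.

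The proteasome degrades proteins that carry ubiquitin chains. Its 20S core is a barrel of alpha rings, which gate the entry, and beta rings, which hold the cutting sites, and the 19S cap recognises ubiquitin and uses ATPases to unfold substrates. In immune cells and under interferon the inducible subunits Psmb8, Psmb9 and Psmb10 replace the constitutive Psmb5, Psmb6 and Psmb7 to form the immunoproteasome, which favours peptides for MHC class I, and the PA28 and PA200 activators can cap the core in place of 19S.

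Promoter windows of 4 members are shown because the difference between muscle and brain (Psme4, Psmd12), the 2 calls between labelled groups (Psma2) and the inducible subunits (Psmb9) turn on these genes. Each window runs 5′ to 3′ from 250 bases before the RefSeq start to the first 50 bases after it (GRCm38.p6). Capitals mark letters that match, on either strand, the core of the antioxidant response element TGACNNNGC, the CCAAT box or the interferon response core GAAANNGAA, and positions count from the start base as 0. The Psme4 window is chr11:30771525-30771824 on the plus strand, with the antioxidant core at -7. The Psmd12 window is chr11:107479278-107479577 on the plus strand, with that core at -247. The Psma2 window is chr13:14612992-14613291 on the plus strand, with a CCAAT box at -54. The Psmb9 window is chr17:34187281-34187580 on the minus strand, with a CCAAT box at -8.
Psme4: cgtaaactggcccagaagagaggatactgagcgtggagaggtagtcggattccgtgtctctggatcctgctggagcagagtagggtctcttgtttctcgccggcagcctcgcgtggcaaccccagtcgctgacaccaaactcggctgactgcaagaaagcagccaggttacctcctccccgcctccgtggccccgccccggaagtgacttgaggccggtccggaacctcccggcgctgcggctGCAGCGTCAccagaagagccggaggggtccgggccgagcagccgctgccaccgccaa
Psmd12: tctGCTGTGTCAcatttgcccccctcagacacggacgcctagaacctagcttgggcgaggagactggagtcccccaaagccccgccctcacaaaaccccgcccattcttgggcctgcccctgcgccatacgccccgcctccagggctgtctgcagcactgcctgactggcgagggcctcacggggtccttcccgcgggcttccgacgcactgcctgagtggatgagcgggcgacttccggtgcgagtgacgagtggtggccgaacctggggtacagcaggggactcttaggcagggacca
Psma2: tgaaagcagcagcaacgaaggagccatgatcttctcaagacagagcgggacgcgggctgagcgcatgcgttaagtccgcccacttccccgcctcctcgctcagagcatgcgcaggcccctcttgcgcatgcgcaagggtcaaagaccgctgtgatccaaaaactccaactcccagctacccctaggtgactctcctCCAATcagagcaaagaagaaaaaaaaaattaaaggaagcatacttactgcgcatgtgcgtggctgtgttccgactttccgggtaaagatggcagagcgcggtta
Psmb9: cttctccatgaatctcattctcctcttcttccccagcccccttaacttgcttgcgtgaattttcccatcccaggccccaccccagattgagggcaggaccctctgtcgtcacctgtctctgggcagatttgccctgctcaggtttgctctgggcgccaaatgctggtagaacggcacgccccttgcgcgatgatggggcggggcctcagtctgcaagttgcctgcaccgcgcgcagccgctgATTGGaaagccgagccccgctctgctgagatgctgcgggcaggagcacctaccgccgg

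RefSeq windows were found for 37 of the 45 members, 40 windows in all. The antioxidant core was in 5 of the 40 (12.5%), against 12.4% of 32851 windows of all genes. The CCAAT box was in 14 (35% against 37.4%), with 5 of the 8 alpha ring windows among them. The interferon core was in 7 (17.5% against 8.56%) and in none of the 3 inducible beta windows. The 7 were windows of Psmb3, Psmb4, Psmc2, Psmd4, Psmd9, Psme1 and Psmg4. A match describes letters in a window and is no evidence of binding, and no match says nothing about the factor.

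Levels of the members ranged widely within each class. Of the alpha ring, Psma7 had the highest median over the 16 groups (71.2 FPKM) and Psma5 the lowest (6.97). Among constitutive beta subunits the highest was Psmb4 (185) and the lowest Psmb3 (64.6). In the cap, the ATPase genes ran from Psmc6 (16.3) to Psmc4 (105) and the non-ATPase genes from the deubiquitinase Psmd14 (19.6) to the ubiquitin receptor Psmd4 (155). Of the inducible beta genes Psmb9 was highest (28.2) and Psmb10 lowest (19.4), and of the PA28 genes Psme1 (49.0) and Psme2 (13.1). Psme4 had a median of 8.92. Assembly chaperones were lower than most subunits, from Psmd10 (7.09) to Psmd5 (22.6), and Psmf1 was at 15.95. The tissue-specific core genes were at or near 0. Psmb11, the thymus-specific subunit, was listed at 0 in 12 groups, with brain the exception at up to 0.05, and Psma8, the testis-specific alpha subunit, reached 0.41 at most. The other 43 members had an FPKM of at least 1 in every group and entered all comparisons.

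**Figure D1:**
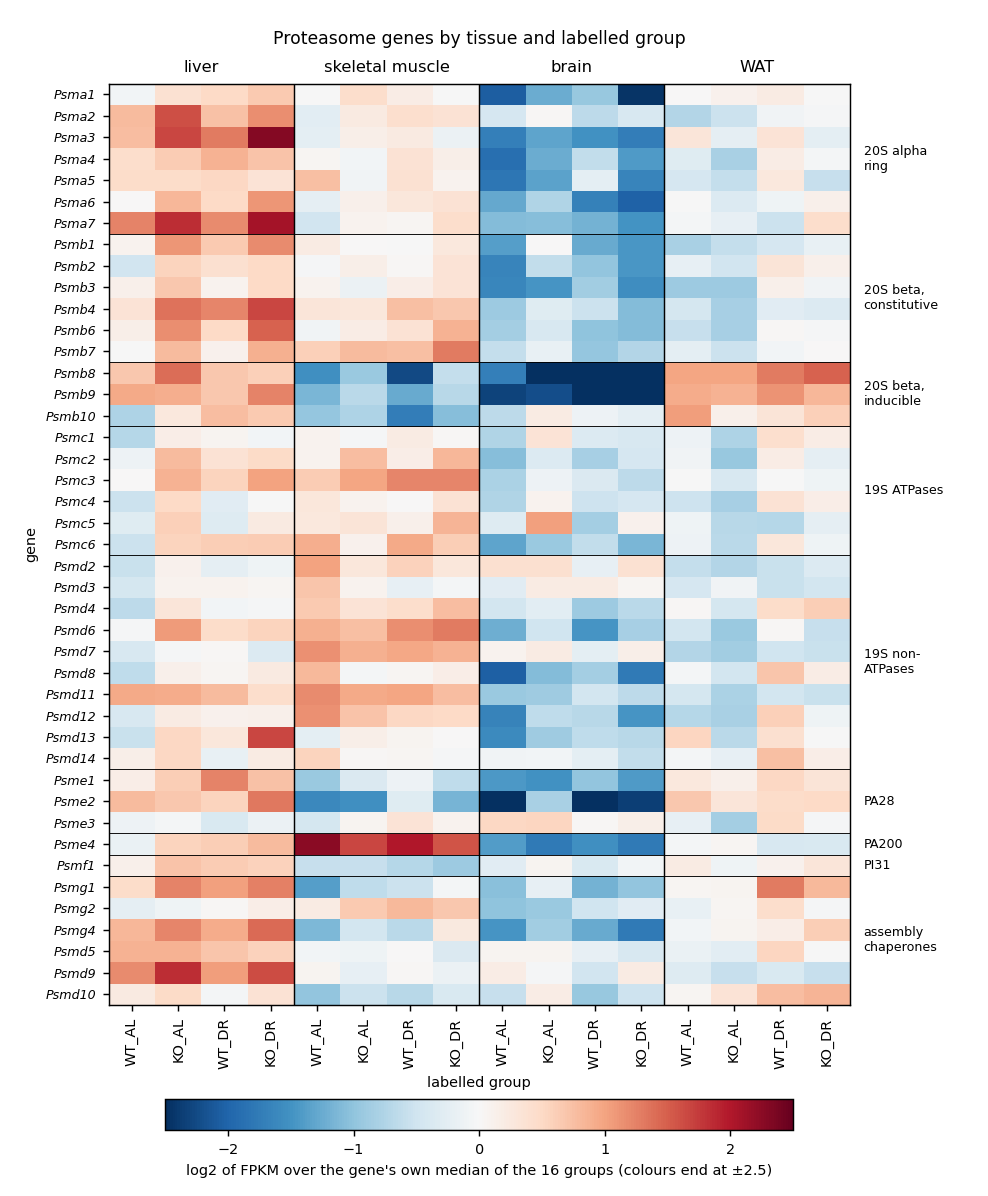
Level of each of 43 members (rows, by class) in the 16 labelled groups (columns, by tissue), as log2 of the FPKM over the gene's own median of the 16 groups, with red above and blue below that median. The brain columns are mostly blue, with 33 members lowest there by tissue median. The alpha ring rows except Psma5 have their reddest cell in liver, and Psma5 and Psme4 have theirs in muscle.

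The tissues had a different order for core and cap. By the median of a tissue's 4 groups, brain was the lowest tissue for 33 of 43 members, liver the highest for 23 and skeletal muscle for 16. All 7 alpha ring genes were highest in liver and lowest in brain. Of the constitutive beta genes, 5 of 6 were highest in liver and all 6 lowest in brain. For 0 of these 6 did every liver group lie above all groups of the other tissues. In WT_AL, Psmb1, Psmb2 and Psmb7 were lower in liver than in muscle, by 0.11, 0.45 and 0.61 on the log2 scale. The 19S genes had another order, with all 6 ATPases and 7 of 10 non-ATPases highest in muscle. These orders hold for FPKM values. As a share of the summed FPKM of all entries, the members came to 0.235% in WT_AL brain and 0.273% in WAT. The share was 0.158% in WT_AL liver and 0.172% in muscle. In each labelled group it was lower in muscle than in brain, so brain was not the lowest tissue on that scale. In bulk tissue, fewer cells of a type and less RNA per cell cannot be told apart.

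Some members had a tissue whose 4 groups lay wholly above or below the other 12. For 10 members all 4 brain values lay below the 12 values of the other tissues, against 10.5% of 20228 entries that reach an FPKM of 1 in a group. They were Psma1, Psma3, Psma6, Psma7, Psmb2, Psmb9, Psmd8, Psme1, Psme4 and Psmg2. For 7 members, Psma2, Psma3, Psma4, Psma7 and the chaperones Psmd5, Psmd9 and Psmg4, all 4 liver values lay above the rest (10.7% of entries). Psmd9 overlaps Hpd on the opposite strand, a gene of tyrosine breakdown that stood at 1784 to 3817 FPKM in liver and at 87.5 or less elsewhere, and Psmd5 overlaps Cutal, at 18.2 to 26.9 in liver and 1.505 or less elsewhere. The part of these neighbours in the liver values of Psmd9 (20.2 to 34.8) and Psmd5 (33.7 to 41.5) was not tested. Muscle values of Psmd7 and Psme4 were all above the other tissues (7.72% of entries), and those of Psmb10 and Psmf1 all below (6.27%). Psmd7 was the 1 gene of the 16 cap genes with such muscle values, so the high muscle values of the cap overlap with other tissues for the rest.

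The relation of cap to core also differed by tissue. The median FPKM of 16 cap genes over that of 13 constitutive core genes was 0.59 to 0.67 in the 4 liver groups and 0.64 to 0.75 in the WAT groups. It was 1.11 to 1.77 in brain and 0.83 to 1.59 in muscle. The brain groups thus lay above all liver and WAT groups. This ratio carries no error, and it compares RNA levels per length, not assembled particles.

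Tissues were compared with a test in WT_AL mice, with 2 libraries in each group. Skeletal muscle against brain had the highest count: 12 of 43 members were higher in muscle (9.1% of entries tested) and 0 lower (15.7%), with a median log2 difference of 1.12 over the members and -0.16 over all entries. All 29 constitutive core and cap genes had higher values in muscle. The called members were Psma1, Psma4 and Psma5 of the alpha ring, Psmb1, Psmb2 and Psmb3 of the beta ring, the ATPase Psmc6, the non-ATPases Psmd6, Psmd8, Psmd11 and Psmd12, and Psme4. Every call in this and the other comparisons is an adjusted p under the FDR of 10% in a two-sided Wald test on the authors' intervals, adjusted by Benjamini-Hochberg over all entries tested. With 1 value per group no exact test over samples could be run, so differences are given with their SE and whether they were called.

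Psme4 (GRCm38 chr11:30771726-30880361) encodes PA200, an activator that caps the core without using ATP or ubiquitin. In muscle it stood at 42.5, 28.5, 35.5 and 26.6 FPKM in WT_AL, KO_AL, WT_DR and KO_DR. The brain values were 3.40, 2.62, 3.10 and 2.60, those of liver 7.92, 13.1, 13.7 and 15.5, and those of WAT 8.62, 9.21, 6.76 and 6.84. Every muscle group was thus above every other group and every brain group below. In WT_AL muscle was higher than brain by 3.64 on the log2 scale (SE 1.26), than liver by 2.42 (SE 1.03) and than WAT by 2.30 (SE 0.94), of which the call against brain held at an FDR of 5% and the others did not. Relative to Psme3, the nuclear PA28 subunit, Psme4 was at 101.7% to 235.3% in muscle and at 7.39% to 12.3% in brain. The interval of Psme4 is wide, with an SD of 47.3% in WT_AL muscle.

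Psmd12 (chr11:107479484-107504362), a scaffold subunit of the 19S lid, was at 100.1 FPKM in WT_AL muscle and 14.3 in WT_AL brain, a log2 difference of 2.81 (SE 0.62). Its difference was 1.34 in KO_AL, 1.21 in WT_DR and 1.98 in KO_DR, without a test. Its muscle values in those groups were 74.1, 64.8 and 64.2, and those in brain 29.3, 28.1 and 16.2. Psmd8 (chr7:29174188-29180701), another lid subunit, differed by 2.85 (SE 0.56), from 23.5 in brain to 168.6 in muscle. For Psmd8 the difference was 1.03, 0.90 and 1.92 in KO_AL, WT_DR and KO_DR. WT_AL had the highest muscle value and the lowest brain value of both genes, so the tested difference is the widest of the 4, while that of Psme4 was 3.36 to 3.64 in all 4.

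The other called members spanned log2 differences of 1.58 to 2.56 between muscle and brain. Psmc6, an ATPase of the cap's base, was at 30.4 FPKM in WT_AL muscle and 6.47 in WT_AL brain (log2 difference 2.23, SE 0.69). Psmd6, a lid subunit, was at 93.9 and 21.7 (2.11, SE 0.68), and its muscle values of 85.8 to 123.8 stood above its brain values of 18.2 to 35.7 in every labelled group. Psmd11, another lid subunit, was at 44.9 and 10.4, with 33.9 to 44.9 in muscle and 10.4 to 14.3 in brain. Psma5, the lowest alpha gene, was at 11.7 and 1.98. Psmb3 was at 69.0 and 20.7, and its liver value of 70.6 was close to that of muscle. Muscle and brain values of Psma5, Psmb3, Psmc6, Psmd6 and Psmd11 did not overlap, while those of Psmb1 did, at 123.4 to 149.6 in muscle and 45.2 to 124.2 in brain, with WT_DR brain the highest brain group for Psma5, Psmb3 and Psmc6.

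Assembly chaperones, which join core and cap parts and then leave, had no call in any comparison. Psmg4 was at 33.4 to 50.01 FPKM in liver, 17.97 to 28.9 in WAT, 8.64 to 22.2 in muscle and 5.50 to 10.2 in brain. Psmg1, which pairs with Psmg2 in core assembly, was at 11.7 to 20.4 in liver and 3.28 to 8.23 in muscle. Psmg2 had the other order, with 8.64 to 13.1 in muscle and 6.39 to 8.36 in liver. Psmf1, an inhibitor of the core, was at 17.4 to 26.1 in liver and 8.52 to 10.7 in muscle. Psmf1 was lower in muscle than in brain in all 4 labelled groups. Of the 6 chaperones 4 were lower in muscle than in brain in WT_AL, with a median log2 difference of -0.12, but in WT_DR all 6 were higher in muscle, by 0.20 (Psmd5) to 1.30 (Psmg2), so the chaperones had no steady order of these tissues.

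**Figure D2:**
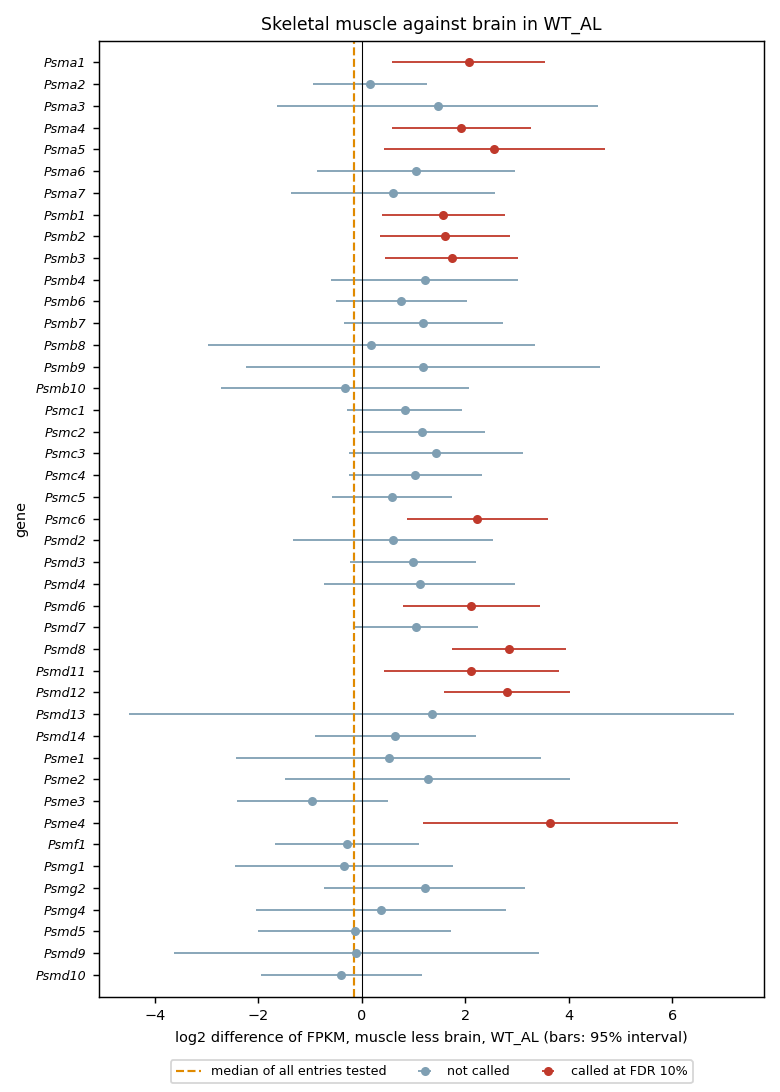
Log2 difference of FPKM between skeletal muscle and brain in WT_AL for 43 members (rows, by class), with 95% intervals from the test; red points were called. The dashed line is the median of all entries tested at -0.16, and the 12 called members are all to the right of 0.

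Liver against brain gave 7 members higher in liver (10.3% of entries) and 0 lower (11.5%): Psma1, Psma4, Psma7, Psmb1, Psmb3, Psmd11 and Psme2. Psma4 was at 63.5 in liver and 12.8 in brain, a log2 difference of 2.31 (SE 0.70), and Psma7 at 168.4 and 33.5. Liver against muscle gave 2 members higher in liver (12.3%), Psma2 and Psme2, and 4 lower (8.4%), Psmd7, Psmd8, Psmd12 and Psme4. Psmd7, a lid subunit that pairs with Psmd14, was at 31.0 in liver and 90.9 in muscle, with a log2 difference of -1.55 (SE 0.59). Liver against WAT gave Psma2 alone (11.1% of entries higher in liver, 9.43% lower), at 36.8 and 12.9.

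Muscle against WAT gave 6 members higher in muscle (9.2%), Psma2, Psmd3, Psmd6, Psmd7, Psmd12 and Psme4, and 2 lower (14.9%), the inducible Psmb8 and Psmb10. After centring on the median of all entries, which was -0.32 here, Psmb1, Psmb3, Psmc6, Psmd2, Psmd8 and Psmd11 were called higher as well. Psmb8 and Psmb10 were no longer called, so the split of calls depends on the scaling. The share of all entries called after centring is not given here, so the change cannot be read as particular to the members. Brain against WAT gave 0 higher in brain (15.7%) and 5 lower (11.2%), Psma1, Psmb2, Psmb9, Psmd8 and Psme2. In each of the directions with 0 calls there were also 0 members at an unadjusted p under 0.05. Member counts lay on both sides of the share of all entries called in the same direction, with 12 of 43 beside 9.1% for higher in muscle than in brain and 0 of 43 beside 15.7% for lower. Over all tested values the members leaned further to one side, with 37 of 43 members higher in liver than in brain (49.0% of entries) and 36 lower in brain than in WAT.

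The inducible subunits followed another order of tissues than the constitutive ones they replace. Psmb8 and Psmb9 were high in WAT and liver and low in muscle and brain, and Psmb10 was lowest in muscle, while Psmb6 and Psmb7 were higher in muscle than in WAT in each labelled group. Psmb8 and Psmb9 lie 9956 bases apart in the MHC region (chr17:34197721-34201454 and chr17:34181987-34187764), and Psmb9 overlaps the peptide transporter gene Tap1 on the opposite strand. Psme1 and Psme2, the inducible PA28 subunits, lie 5911 bases apart on chromosome 14.

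Psmb8, the inducible chymotrypsin-like subunit, was at 36.1, 36.1, 44.8 and 51.0 FPKM in WT_AL, KO_AL, WT_DR and KO_DR WAT. It was at 29.1, 48.3, 29.2 and 27.6 in liver, at 6.30, 9.62, 3.82 and 12.1 in muscle and at 5.55, 3.26, 1.78 and 1.78 in brain. The muscle value in WT_AL was lower than that of WAT by 2.52 on the log2 scale (SE 1.08), a call that was lost at an FDR of 5%, without the minimum FPKM and after centring. The muscle and brain intervals reached 0 in WT_AL.

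Psmb9, the inducible caspase-like subunit, was at 48.2, 46.1, 55.4 and 45.1 in WAT and at 49.1, 47.8, 40.7 and 60.0 in liver. Its muscle values were 11.5, 15.8, 10.5 and 15.7, and its brain values 5.07, 5.49, 2.82 and 1.90. WAT and liver did not overlap with muscle or brain in any labelled group. Brain was lower than WAT in WT_AL by 3.25 (SE 1.46), a call that was lost at an FDR of 5% and without the minimum FPKM. As a share of Psmb6, the subunit it replaces, Psmb9 came to 45.6% to 80.6% in WAT, 21.2% to 43.7% in liver, 8.16% to 13.7% in muscle and 3.99% to 9.09% in brain. Psmb6 itself was at 112, 226, 142 and 280 in liver, so the lower share in liver than in WAT stands beside a higher Psmb6 in liver.

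Psmb10, the inducible trypsin-like subunit, was at 40.2, 21.2, 24.1 and 29.2 in WAT and at 9.86, 11.3, 5.83 and 9.24 in muscle. In brain it was at 12.4, 22.2, 17.7 and 16.4, above each muscle group, so brain was not its lowest tissue as it was for Psmb8 and Psmb9. In liver it was at 11.3, 23.1, 32.9 and 30.6, with intervals from 0 to as much as 154.2. Muscle was lower than WAT in WT_AL by 2.03 (SE 0.87), again lost at an FDR of 5%, without the minimum FPKM and after centring. Its share of Psmb7 was 34.2% to 64.6% in WAT, 25.2% to 47.0% in brain, 15.4% to 41.6% in liver and 4.67% to 8.89% in muscle.

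Psme2 was at 20.6, 15.9, 17.6 and 18.1 in WAT, at 22.1, 20.5, 18.9 and 32.2 in liver, at 4.22, 4.44, 10.4 and 5.77 in muscle and at 1.75, 7.33, 1.69 and 2.52 in brain. Brain was lower than liver in WT_AL by 3.66 (SE 1.28) and than WAT by 3.55 (SE 1.46). Its partner Psme1 was higher in each group, from 17.1 in KO_AL brain to 114.9 in WT_DR liver, and was called in no tissue comparison. Psmb5, the counterpart of Psmb8, has no entry of its own. The joined entry of Mir686 and Psmb5 stood at up to 768 FPKM and cannot be read as Psmb5 alone.

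Markers of leukocytes were highest in WAT. By the median of a tissue's groups, Psmb8 was highest in WAT but Psme1 and Psme2 in liver. Psmb9 (48.5 in liver, 47.1 in WAT) and Psmb10 (26.8 and 26.6) were close in the 2 tissues. The 7 of 8 markers with an entry of their own summed to 226.9 to 622.9 FPKM in WAT, 73.3 to 178.7 in liver, 44.7 to 114.4 in muscle and 46.8 to 60.9 in brain, with none at 0 in all groups of a tissue. Within WAT the sum was 622.9, 336.7, 226.9 and 262.1 in WT_AL, KO_AL, WT_DR and KO_DR. Psmb10 was also highest in WT_AL there, at 40.2 against 21.2 to 29.2, while Psmb8 was 36.1 in WT_AL and 44.8 in WT_DR. The part of leukocytes in the tissue levels of the inducible subunits was not tested.

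**Figure D3:**
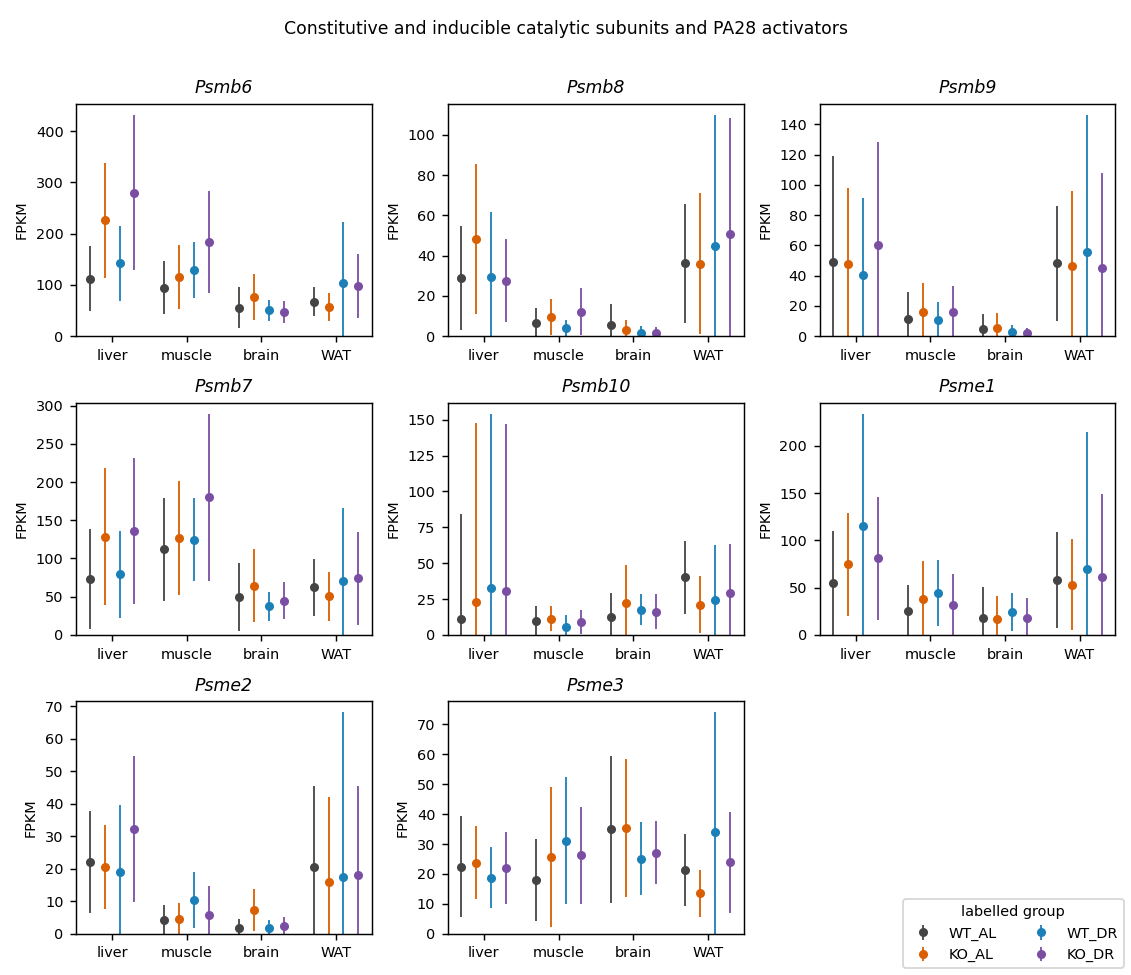
FPKM of the catalytic subunits Psmb6, Psmb8, Psmb9, Psmb7 and Psmb10 and of the PA28 subunits Psme1, Psme2 and Psme3 in the 16 labelled groups, with the authors' 95% intervals as bars and a linear axis from 0. Psmb8 and Psmb9 sit near the top in WAT and near 0 in brain, Psmb6 is highest in KO_DR liver at 280, and the Psmb10 bars in liver span the panel.

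The study looked for common and unique signatures of WT_DR and KO_AL against WT_AL, and then at the effect of restriction in the knockouts. Groups were compared here by genotype within a diet and by diet within a genotype. In 16 such comparisons 1 member was called, Psma2 in skeletal muscle. Psma2 (chr13:14613240-14674236) is an alpha ring subunit. Its muscle values were 17.8 in WT_AL, 24.9 in KO_AL, 28.6 in WT_DR and 27.5 FPKM in KO_DR, with WT_AL below the rest. KO_AL was higher than WT_AL by 0.48 on the log2 scale (SE 0.11), 1 of 43 members called beside 0.681% of entries. WT_DR was higher than WT_AL by 0.68 (SE 0.16), 1 of 43 beside 1.4%. Both comparisons share the WT_AL value, so they are not separate evidence that it is low.

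These calls rest on intervals that are far narrower than those of other members. The SD of Psma2 was 7.30% of its FPKM in WT_AL muscle, 1.91% in KO_AL, 8.48% in WT_DR and 2.81% in KO_DR, where the members' median SD was 27.9% to 37.8%. In the other tissues Psma2 had an SD of 5.45% to 42.3%. A protein-coding gene on the same strand, AW209491, overlaps Psma2 in the annotation and stood at 12.5 to 16.6 FPKM in muscle. Marker levels of other cell types also differed between these muscle groups, with red blood cell markers at 950 FPKM in WT_AL and 11582 in KO_AL and liver markers at 11.8 in WT_AL and 1907 in WT_DR. The part of the neighbour and of other cell types in the Psma2 values was not tested. In liver Psma2 was at 36.8, 64.7, 35.4 and 47.6, in brain at 15.96, 21.8, 13.5 and 16.1 and in WAT at 12.9, 14.6, 20.0 and 20.8, with no call between labelled groups.

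**Figure D4:**
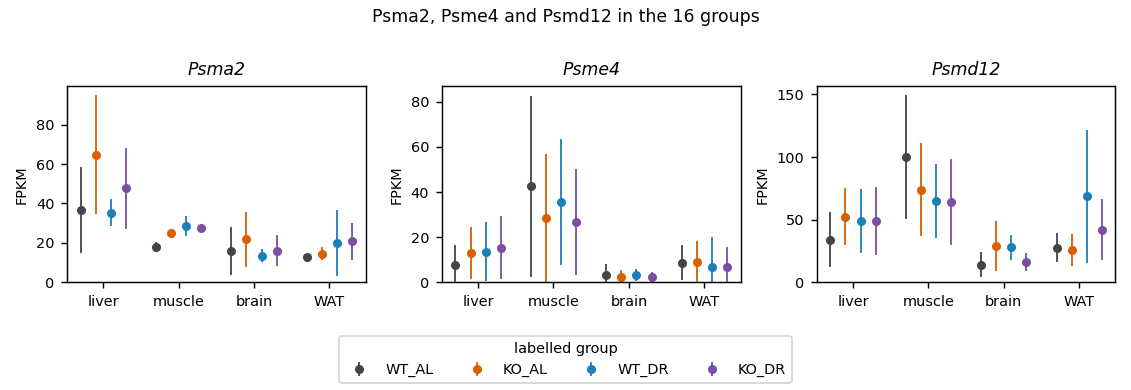
FPKM of Psma2, Psme4 and Psmd12 in the 16 labelled groups, with the authors' 95% intervals and a linear axis from 0. Psma2 has short bars in muscle, where WT_AL at 17.8 is below the other groups, and Psme4 in muscle lies above all other groups at 26.6 to 42.5.

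In liver, 0 of 43 members were called in KO_AL against WT_AL (0.316% of entries). At an unadjusted p under 0.05 there was 1 member, beside 2.03% of entries. Values were nevertheless higher in KO_AL for 38 of 43 members, or 88.4%, against 61.4% of all entries. The median log2 difference was 0.73, against 0.16 over all entries, so that 0.56 remains after the shift of all entries. The 6 constitutive beta genes had a median of 1.01, the 6 ATPases 0.90, the 7 alpha genes 0.59 and the 10 non-ATPases 0.65. Psmb2 had the smallest unadjusted p, at 122.5 against 59.3 FPKM (log2 difference 1.05, SE 0.53). WT_DR against WT_AL in liver also gave 0 calls (0.236%), with 0 members at an unadjusted p under 0.05 beside 2.91% of entries. Values were higher for 31 members, with a median of 0.43 against 0.03. The 5 liver markers summed to 32820.3 FPKM in WT_AL, 74712 in KO_AL and 91087 in WT_DR liver, and their part in the member values was not tested. The shared WT_AL liver group has 2 libraries and its members had a median SD of 35.9%.

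In brain most members had their higher values in KO_AL on the FPKM scale. KO_AL against WT_AL gave 0 calls (0.203%). At an unadjusted p under 0.05 there were 2 members, Psmb1 and Psmc5, beside 1.81% of entries. Values were higher for 39 of 43 members, or 90.7% against 59.0% of entries. The median log2 difference was 0.47, against 0.13, and all 29 constitutive core and cap genes had higher values. As a share of the summed FPKM of all entries the members went the other way, with 0.235% in WT_AL and 0.215% in KO_AL brain. Psmb1, a non-catalytic beta subunit, was at 47.9 in WT_AL, 124.2 in KO_AL, 51.4 in WT_DR and 45.2 in KO_DR. WT_DR against WT_AL in brain gave 0 calls (0.224%), with 22 members higher and 21 lower and a median of 0.10. Psma4 and Psmd8 were at an unadjusted p under 0.05, beside 2.22% of entries.

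Red blood cell markers moved in the direction of most members in several comparisons of labelled groups and against it in others. In liver the 5 markers summed to 2681, 13569, 3469 and 12047 FPKM in WT_AL, KO_AL, WT_DR and KO_DR, and in brain to 1032, 9907, 971 and 3475. In WAT the sums were 6863, 4297, 12269 and 21030, so that they were lower in KO_AL than in WT_AL, where most members were lower, and higher in WT_DR than in WT_AL and in KO_DR than in KO_AL, where most members were higher. Against the members, they were higher in KO_DR than in WT_DR in brain and in WAT, where 27 of 43 members were lower in each. In muscle they were 950 in WT_AL and 11582 in KO_AL while 22 members were higher and 21 lower. Their part in the member values was not tested.

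In muscle the non-ATPase and alpha genes had opposite signs, without calls beyond Psma2. In KO_AL against WT_AL 9 of 10 non-ATPases had lower values, with a median of -0.37, while 5 of 7 alpha genes were higher, with a median of 0.38. In WT_DR against WT_AL 8 of 10 non-ATPases were lower (median -0.32) and 6 of 7 alpha genes higher (0.47). Over all entries the medians were -0.05 and -0.06, with 46.9% and 45.7% of entries higher. The cap did not move as a whole, since the 6 ATPases had median differences of -0.02 and 0.06. The cap-to-core ratio was 1.59 in WT_AL muscle, 1.00 in KO_AL, 1.02 in WT_DR and 0.83 in KO_DR. Both comparisons use the same WT_AL group of 2 libraries.

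In WAT, KO_AL against WT_AL gave 0 calls (1.29%), with 0 members at an unadjusted p under 0.05 beside 4.48% of entries. Values were lower for 33 of 43 members, with a median of -0.24 against -0.06 for all entries. All 6 ATPases were lower, with a median of -0.57. WT_DR against WT_AL gave 0 calls (0.57%), with 1 member, Psmd12, at an unadjusted p under 0.05 beside 3.56% of entries. Values were higher for 32 members, with a median of 0.27 against -0.17. As a share of the summed FPKM of all entries the members were lower in WT_DR WAT (0.228%) than in WT_AL WAT (0.273%). The WT_DR WAT group has 2 libraries and the widest intervals, with a member median SD of 58.3%.

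The groups labelled KO_DR were set against WT_DR for genotype under restriction and against KO_AL for diet in the labelled knockouts. None of the 8 comparisons gave a member call. Against WT_DR the share of all entries called was 0.288% in liver, 2.23% in muscle, 1.16% in brain and 0.283% in WAT. Values were higher for 32 of 43 members in liver (74.4%, against 57.4% of all entries), 21 in muscle (48.8% against 52.9%), 16 in brain (37.2% against 64.9%) and 16 in WAT (37.2% against 56.5%). As a share of the summed FPKM of all entries the members were higher in KO_DR than in WT_DR in brain (0.205% against 0.187%). The same held in WAT (0.255% against 0.228%). The brain median was -0.16 while that of all entries was 0.23. Psmd8 had the smallest p there, at 28.4 against 53.3 FPKM (log2 difference -0.91, SE 0.33), and was not called, while after centring on the median of all entries it was. Psma1 was at 7.02 against 19.9 (log2 difference -1.50, SE 0.56), and with Psmc5 these were the 3 members in brain at an unadjusted p under 0.05, against 0 in each other tissue.

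Against KO_AL the share of entries called was 0.611% in liver, 0.5% in muscle, 0.365% in brain and 0.707% in WAT. Values were higher for 21 members in liver (48.8%, against 47.4% of all entries) and 29 in muscle (67.4% against 52.9%). In brain 5 of 43 were higher (11.6% against 52.2%), with a median of -0.44 against 0.03, and Psmb1 missed the threshold with a log2 difference of -1.46 (SE 0.45). In WAT 36 of 43 were higher (83.7% against 50.6%), with a median of 0.48 against 0.01. The brain values of KO_AL thus lay above those of WT_AL for 39 members and above those of KO_DR for 38, and KO_AL is the group both comparisons share. At an unadjusted p under 0.05 there were 0 members in liver, 1 in muscle (Psma2), 1 in brain (Psmb1) and 1 in WAT (Psmc1). Of all entries 2.87% were under that limit in liver, 2.01% in muscle, 2.51% in brain and 4.03% in WAT.

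**Figure D5:**
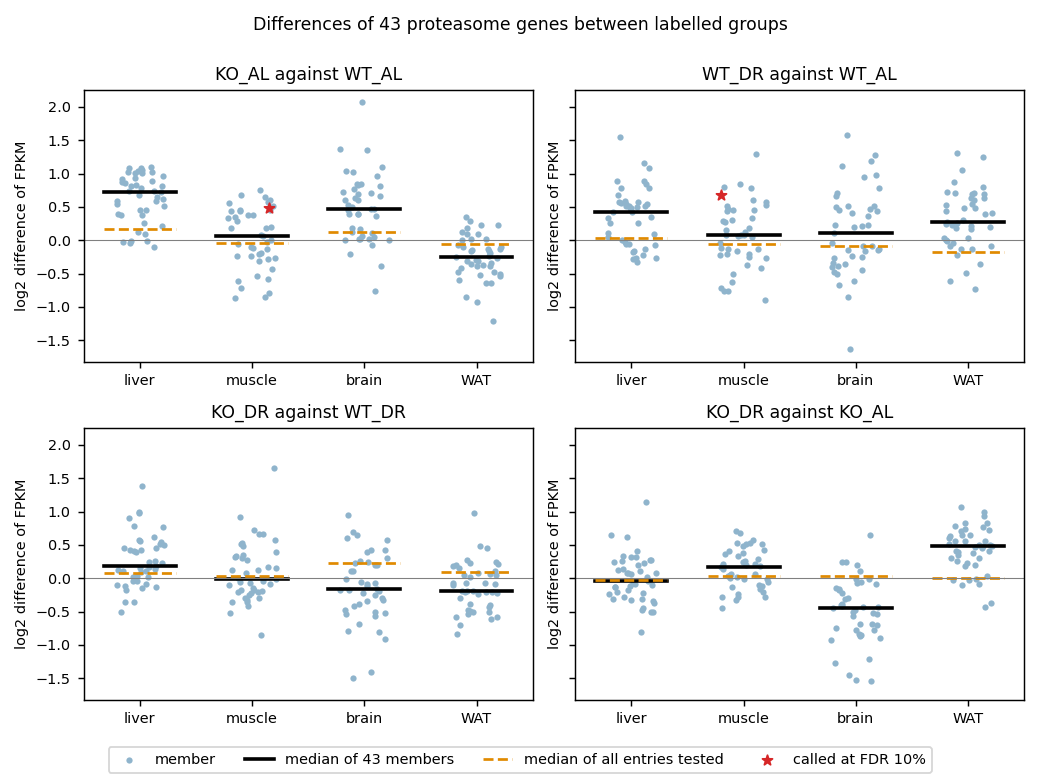
Log2 difference of FPKM for 43 members (points) in 4 comparisons of labelled groups in each tissue, with the median of the members (black line) and of all entries tested (dashed line); stars are calls. The 2 stars are Psma2 in muscle, and the black line stands above the dashed one by 0.56 in liver and 0.34 in brain for KO_AL against WT_AL and below it by 0.47 in brain for KO_DR against KO_AL.

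Whether the genotype difference depended on diet was tested as the difference under DR less that under AL. It gave 0 member calls in liver (0.086% of entries), muscle (0.371%), brain (0.396%) and WAT (0.121%). At an unadjusted p under 0.05 there were 4 members in brain (Psma1, Psmb1, Psmd8 and Psmd12), 1 in muscle (Psma2) and 0 in liver and WAT. Of all entries 3.53% were under that limit in brain, 2.30% in muscle, 1.05% in liver and 1.56% in WAT. Values were negative for 35 of 43 members in brain, with a median of -0.61 against 0.10 over all entries, and for 33 in liver, with a median of -0.38 against -0.09. The muscle value of Psma2 was -0.54 (SE 0.17), not called, while after centring it was called at -0.61. Among 860 member tests of contrasts and interactions, 19 had an unadjusted p under 0.05. Of all entries 1.05% to 7.50% had such a p in the single comparisons.

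Genes that work with the proteasome were taken from lists of ubiquitin genes (4 with an entry of their own), partners and receptors (7), shuttle and unfolding factors (8), regulators (3), MHC class I presentation (9) and the interferon response (5). Across the 16 comparisons of labelled groups 1 of these 36 genes was called, the MHC class I heavy chain H2-D1, higher in KO_DR than in WT_DR brain by 1.64 (SE 0.44). Of all entries 1.16% were called in that comparison, and 0.203% to 2.23% over the 16. The regulators comprise Nfe2l1, the transcription factor that raises subunit genes when proteasome activity is low, its activating glycanase Ngly1 and the antioxidant factor Nfe2l2. In WT_AL, Nfe2l1 was higher in muscle than in liver by 2.66 (SE 1.11). Nfe2l2 was lower in brain than in liver by 3.03 (SE 0.67), than in muscle by 2.60 (SE 0.65) and than in WAT by 2.17 (SE 0.59). The partner Pomp, which matures the core, was lower in brain than in WAT by 1.33 (SE 0.59).

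MHC class I genes were also lower in muscle and brain than in WAT. Of 9, 7 were called lower in muscle than in WAT (14.9% of all entries) and 5 lower in brain than in WAT (11.2%). In the other direction 0 were called (9.2% and 15.7%). Calls higher in liver numbered 4 against brain (10.3%) and 4 against muscle (12.3%). B2m, the light chain of MHC class I, was lower in brain than in WAT by 6.64 (SE 0.68), and Tap1, the neighbour of Psmb9, by 2.61 (SE 1.04). Of the 5 interferon response genes 4 were called lower in muscle than in WAT (14.9% of all entries) and 3 lower in brain (11.2%). Since Tap1 and Psmb9 overlap and no source used here states whether fragments were counted by strand, the 2 cannot be fully told apart. The annotation places a gene on the opposite strand over 17 of the 45 members and on the same strand over 6.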

How the data were processed

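Polyadenylated RNA of liver, skeletal muscle, brain and WAT was sequenced by the authors on an Ion Proton instrument, in 43 libraries. Per the submitters' processing notes and the study's methods, reads were trimmed with cutadapt and aligned with BBmap in repeated rounds on GRCm38. They were quantified with Cuffdiff 2.2.1, with multi-read correction and with libraries normalised by the geometric mean across samples. The deposited FPKM values are 1 per group, pooled over its 2 or 3 libraries by the authors, with a 95% interval and a status for 42349 entries, of which 873 join several genes. Values per library and depth were not used here. Whether Cuffdiff counted by strand is not given in the sources used here.

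From these the SD of a group value was taken as (upper bound less FPKM) divided by 2. Log2 ratios of group FPKMs, without a pseudocount, were tested with a two-sided Wald test (delta-method SE, normal reference) and Benjamini-Hochberg adjustment over all entries tested in that comparison, at an FDR of 10%. This stands in for the authors' Cuffdiff test, which needs the libraries. Entries were tested where the status was OK, the FPKM above 0 in each group and at least 1 in 1 of them. The 26 comparisons were 16 between labelled groups, 4 interactions and 6 between tissues in WT_AL. The study's methods give 2 mice for WT_AL and 3 for each other group, as many as the libraries listed here except in WT_DR WAT, which has 2. The test rests on the spread that Cuffdiff modelled over them.

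Samples were grouped by the labels. The members and gene lists were chosen with earlier results of these data known. Named were Irs1, members called in a comparison, inducible members and their counterparts, the highest and lowest member of each class, members of a class at 0 throughout a tissue, and called genes of the lists, and other members were named after their values were seen. Alternatives were an FDR of 5%, an SD divided by the root of the number of libraries, a pseudocount of 1, no minimum FPKM, a minimum of 5, and centring on the median of all entries. Code was tested on simulated data and run in Python 3.11.15 (statsmodels 0.14.6 and scipy 1.17.1 for tests, pandas 2.3.3 and numpy 2.4.6 for tables, matplotlib 3.10.9 for figures). Coordinates are those of the GENCODE annotation of GRCm38, and promoter windows come from RefSeq (GRCm38.p6).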

Additional observations from a re-analysis of the deposited data

How the results depend on the processing

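No paired analysis was possible because the files give 1 pooled value per group and no value per library, so no library could be left out either. Precision is limited by the 2 or 3 libraries behind each value and by the width of the authors' intervals. With a pseudocount of 1, no minimum FPKM or a minimum of 5, all 26 counts of called members stayed within 1.5 times of those reported. At an FDR of 5% members called were 3 for liver against muscle, 3 for liver against brain, 4 for muscle against WAT and 2 for brain against WAT. These counts are not set beside the share of all entries called at that FDR. The other 22 counts, that for muscle against brain among them, stayed within 1.5 times of those reported.

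Whether the authors' intervals describe a single library or the group mean is not given in the sources used here. With the SD divided by the root of the number of libraries, KO_AL against WT_AL gave 2 members in muscle (3.64% of all entries called), 1 in brain (1.41%) and 1 in WAT (5.94%). WT_DR against WT_AL gave 3 in muscle (6.37%) and 1 in brain (1.73%). KO_DR against WT_DR gave 1 in liver (2.64%), 2 in muscle (10.7%) and 7 in brain (18.5%). KO_DR against KO_AL gave 1 in muscle (2.69%), 5 in brain (4.33%) and 2 in WAT (7.39%). The interaction gave 1 in muscle (2.77%) and 5 in brain (5.15%). Tissue comparisons gave 17 of 43 for liver against muscle (37% of all entries called), 19 for liver against brain (38.7%), 5 for liver against WAT (36.2%), 19 for muscle against brain (41.5%), 19 for muscle against WAT (40.5%) and 13 for brain against WAT (43.7%).

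Calls that changed after centring on the median of all entries are given without the share of all entries called in that setting. Centring added Psmd8 in KO_DR against WT_DR brain, Psma2 in the muscle interaction, and Psmb3 and Psmd11 for liver against WAT. For muscle against WAT it added Psmb1, Psmb3, Psmc6, Psmd2, Psmd8 and Psmd11 and took away Psmb8 and Psmb10. It turned the sign of small, uncalled values, by construction: Psmb9 in brain (-0.017) and Psmb8 in WAT (0.0602) for KO_AL against WT_AL, Psmb8 in liver (-0.025) and Psme2 in brain (0.0352) for WT_DR against WT_AL, Psme2 (-0.0498) and Psmb7 (-0.0213) in WAT for KO_DR against WT_DR, Psmb6 (0.0619) and Psmb7 (0.0644) in the liver interaction, and Psme1 for liver against WAT (0.0658).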
